A study of Homo sapiens with 28 samples.

Results

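The BCL2 family holds the genes that decide whether mitochondria release their contents and start apoptosis. 10 of its genes, chosen by name, were followed among the 18961 amplicons of a targeted expression assay, in which each gene is read through 1 short amplified stretch of its transcript. They are the anti-apoptotic BCL2, BCL2L1 and MCL1, the effectors BAX and BAK1, and the BH3-only genes BBC3, PMAIP1, BCL2L11, BIK and BMF. All 10 were measured and all 10 passed the filter on low reads.

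Expression was compared between tumours grown in ovo, on a chick embryo's chorioallantoic membrane, and in vitro cultures of 4 human liver tumour lines. HepG2 derives from a hepatoblastoma; the remaining 3, Hep3B, HuH7 and PLC/PRF/5, derive from carcinomas of the liver. In each line 4 tumours, grafted at embryonic day 9 and removed at day 18, were set against 3 cultures, which gives 28 libraries. The labels name no drug, transgene or introduced deletion in either setting. RNA of tumours and cultures came through different column kits, so that kit and setting cannot be told apart.

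In background terms, BAX and BAK1 form pores in the outer mitochondrial membrane, after which cytochrome c leaves and caspases are activated. BCL2, BCL-xL (from BCL2L1) and MCL1 hold them in check, and the BH3-only proteins bind these guardians, or the effectors themselves, when a cell is stressed. BBC3 (PUMA) and PMAIP1 (NOXA) are known to be induced by cell stress, BCL2L11 (BIM) and BMF respond to loss of growth signals or of attachment, and hepatocytes depend on BCL-xL and MCL1 for survival.

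Depth was 6085750 to 15086465 reads in the 16 tumours and 6205368 to 8662998 reads in the 12 cultures. Levels are CPM, a gene's reads scaled to 1000000 reads of its library, after TMM scaling, a correction for differences in library composition. Because amplicons differ in efficiency and are not scaled by gene length, a level is compared between libraries within a gene and not between genes. A floor of 3 reads stood at 0.252 to 0.777 CPM in tumours and at 0.286 to 0.423 CPM in cultures. Tumours of a line varied more than its cultures: the mean correlation of a library with the others of its group was 0.914 to 0.984 in tumours and 0.991 to 0.996 in cultures, and it was lowest for the tumour numbered 3 in HepG2, HuH7 and PLC/PRF/5. TMM factors were 0.447 to 0.711 in Hep3B tumours and 1.09 to 1.15 in Hep3B cultures, so Hep3B values rest most on the scaling. Hepatocyte markers were read in every group and moved in opposite directions among lines. Their summed level was 151000 to 261000 CPM in HepG2 tumours against 92200 to 99600 CPM in HepG2 cultures, 176000 to 317000 CPM in Hep3B tumours against 32300 to 34100 CPM in Hep3B cultures, 9900 to 15300 CPM in HuH7 tumours against 24400 to 24900 CPM in HuH7 cultures, and 4300 to 10900 CPM in PLC/PRF/5 tumours against 6250 to 7660 CPM in PLC/PRF/5 cultures. ALB and TTR were at 0 in PLC/PRF/5 cultures, and in PLC/PRF/5 tumours they reached at most 0.330 and 2.20 CPM. At an adjusted p below 0.05 by limma, 6 of the 10 hepatocyte markers were higher in PLC/PRF/5 tumours and 0 were lower. The median log2 fold change of the 10 was 4.27 there, although the summed levels overlapped. HepG2 tumours had 3 markers higher and 2 lower (median 0.243), Hep3B tumours 7 and 2 (2.08), and HuH7 tumours 0 and 6 (-1.31). Summed over their lists, endothelial markers were at 2.27 to 60.1 CPM in tumours and 0.236 to 23.3 CPM in cultures, fibroblast markers at 3.35 to 133 CPM in tumours and 11.7 to 208 CPM in cultures, leukocyte markers at 1.09 to 57.9 CPM in tumours and 1.91 to 394 CPM in cultures, and the 3 measured erythroid markers at 0 to 0.480 CPM in tumours and at 0 in cultures. KDR was at 0 in every group. Within lines, the leukocyte sum was 7.30 to 57.9 CPM in HepG2 tumours against 380 to 394 CPM in HepG2 cultures and 5.39 to 8.39 CPM in HuH7 tumours against 37.0 to 41.0 CPM in HuH7 cultures. The endothelial sum was 49.1 to 60.1 CPM in HepG2 tumours against 9.57 to 12.1 CPM in HepG2 cultures, and 8.06 to 10.9 CPM in Hep3B tumours against 1.34 to 1.77 CPM in Hep3B cultures. It was 2.27 to 7.14 CPM in PLC/PRF/5 tumours against 0.236 to 0.859 CPM in PLC/PRF/5 cultures. HuH7 went the other way, with 5.66 to 21.0 CPM in tumours against 21.4 to 23.3 CPM in cultures. In HepG2 cultures 5 of the 6 leukocyte markers stayed under 10 CPM in every library, and PTPRC and CD3E were at 0. That sum thus came mostly from the remaining marker. In HepG2 tumours 5 of the 6 endothelial markers also stayed under 10 CPM. Because cultures of tumour lines gave such sums, the sums are not counts of cells of the named types. The part of these markers in the members' values was not tested. The share of olfactory receptor amplicons with at least 3 reads was 0.256% to 20.2% in tumours and 0.256% to 3.32% in cultures; its part in the members with few reads was not tested. In bulk samples, fewer cells of a type and less RNA per cell cannot be told apart.

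The amplicons of the 4 members whose changes are described most are shown so that it is clear which part of each transcript the values count. They were placed on GRCh38 by exact match to GENCODE 29 transcripts, and each lies wholly in coding sequence. Capitals mark the bases of the downstream exon where the amplicon crosses a splice junction. BCL2L11 was read within exon 4 on chr2:111164150-111164223, plus strand, a stretch held by 9 of 17 coding transcripts. BMF was read across exons 3 and 4 on chr15:40104287-40105864, minus strand, in 5 of 9 coding transcripts. BIK was read across exons 3 and 4 on chr22:43127724-43128610, plus strand, in its 1 coding transcript. BAX was read across exons 5 and 6 on chr19:48960887-48961613, plus strand, in 4 of 7 coding transcripts.
BCL2L11: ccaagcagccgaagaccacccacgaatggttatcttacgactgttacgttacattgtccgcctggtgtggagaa
BMF: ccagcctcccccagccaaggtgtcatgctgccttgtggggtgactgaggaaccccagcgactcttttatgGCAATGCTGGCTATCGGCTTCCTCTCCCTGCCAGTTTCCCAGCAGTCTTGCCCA
BIK: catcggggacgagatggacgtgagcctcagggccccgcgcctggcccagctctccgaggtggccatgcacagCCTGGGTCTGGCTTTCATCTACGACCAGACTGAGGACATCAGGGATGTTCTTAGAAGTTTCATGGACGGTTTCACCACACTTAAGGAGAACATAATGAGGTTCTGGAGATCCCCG
BAX: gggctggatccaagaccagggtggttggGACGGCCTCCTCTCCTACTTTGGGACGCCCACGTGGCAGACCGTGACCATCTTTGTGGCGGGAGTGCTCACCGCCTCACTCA

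The amplicon of BAK1 also matches the pseudogene BAK1P1 exactly, so its reads are uncertain. GC content was 51.4% in the BCL2L11 amplicon and 57.2% to 70.9% in the other 9, against a median of 55.6% over all tested amplicons. Length was 74 bases for BCL2L11 and 90 to 217 bases for the others, against a median of 137 bases.

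Most members changed in some lines and not in others, and no member was called in all 4, as 1.53% of all tested genes were with higher and 0.611% with lower levels in tumours. Calls needed an adjusted p below 0.05 (limma on log2(CPM + 1), trended variance, Benjamini-Hochberg over the 13100 genes tested). In HepG2 tumours 3 members rose and 3 fell, where 25.1% of all tested genes were called, 12.1% higher and 13.0% lower. In Hep3B tumours 2 rose and none fell, where 52.0% were called, 24.6% higher and 27.4% lower. The Hep3B split turned with the setting: none rose and 3 fell with total counts alone, and none rose and 2 fell with GC and length trends removed. HuH7 tumours had 5 members higher and 1 lower, where 43.4% were called, 23.6% higher and 19.8% lower. PLC/PRF/5 tumours had 3 higher and none lower, where 17.5% were called, 11.9% higher and 5.61% lower. For the counts of 0, limma gave 0 members lower in Hep3B and 1 in PLC/PRF/5 at an unadjusted p under 0.05. edgeR's quasi-likelihood test on recovered reads called 2 and 1 lower there, and DESeq2's Wald test called 0 and 1. The members' median log2 fold change was -0.393 for HepG2, beside -0.015 over all tested genes. It was 0.004 for Hep3B (beside -0.051), 0.707 for HuH7 (beside 0.007) and 0.384 for PLC/PRF/5 (beside 0.068). All tumours lay above all cultures for 3, 3, 4 and 4 members of those lines, taken in that order, where 18.2%, 26.8%, 25.5% and 23.4% of tested genes did. All tumours lay below all cultures for 3, 3, 2 and 1 members, where 21.3%, 28.8%, 23.0% and 16.1% did.

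**Figure D1:**
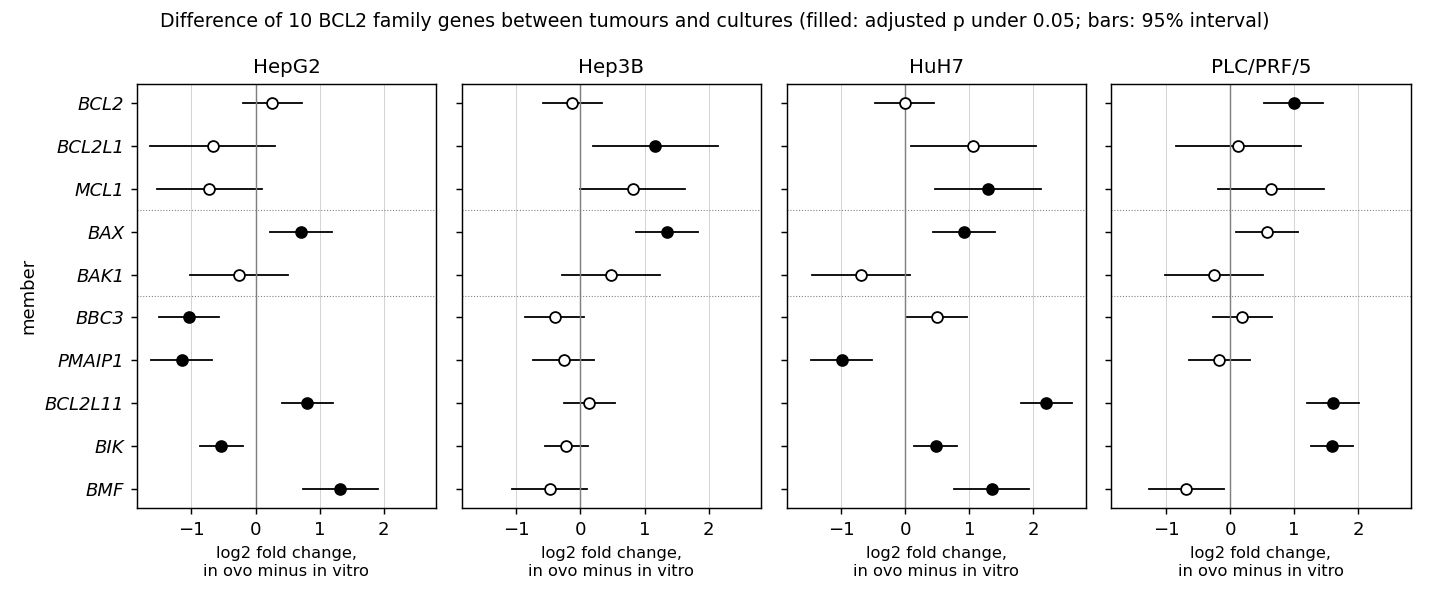
Log2 fold change of each member for in ovo over in vitro, by line (x axis, log2 units of CPM + 1), with 95% intervals and with filled points for called differences; dotted lines part anti-apoptotic members, effectors and BH3-only members. BAX lies right of 0 in all 4 lines, BCL2L11 is called in all lines but Hep3B, and BMF lies right of 0 in HepG2 and HuH7 and left of 0 in Hep3B and PLC/PRF/5.

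BCL2, the founding anti-apoptotic gene, was read well in PLC/PRF/5 alone. Its level was 12.5, 11.3, 19.8 and 14.1 CPM in PLC/PRF/5 tumours, against 6.56, 6.49 and 6.71 CPM in PLC/PRF/5 cultures. Every tumour lay above every culture, and the log2 fold change was 0.99 ± 0.22 (SE; adjusted p = 0.00223 by limma). BCL2 had 5 to 18 reads in HepG2 tumours and 8 to 12 reads in HepG2 cultures, 1 to 5 reads in Hep3B tumours and 4 reads in each Hep3B culture, and at most 1 read in any HuH7 library. None of these 3 lines had a called difference.

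BCL2L1, which encodes BCL-xL, was higher in Hep3B tumours. Its level was 2390, 5241, 9491 and 2841 CPM in Hep3B tumours, against 1845, 1970 and 1915 CPM in Hep3B cultures. The 4 tumours spread widely but all lay above the cultures (log2 fold change 1.17 ± 0.47, adjusted p = 0.0396 by limma). The call is not steady: without the tumour numbered 3 the change was 0.78 (adjusted p = 0.17), and it was also lost without the tumour numbered 2 or without any 1 of the 3 cultures (adjusted p = 0.0787 to 0.0926). With the trends of the values with amplicon GC content and length removed it was 0.04 (adjusted p = 0.901), and with total counts alone 0.19 (adjusted p = 0.635).

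In HuH7, BCL2L1 stood at 12043, 7376, 23910 and 3818 CPM in tumours, against 4674, 4500 and 4503 CPM in cultures. 3 tumours were above the cultures and 1 was below them, and the change of 1.06 was not called (adjusted p = 0.0698), though edgeR called it (1.37, adjusted p = 0.0279). In HepG2 the tumour numbered 3, at 5575 CPM, was above the cultures (4039 to 4850 CPM), and the other tumours, at 1707 to 2788 CPM, were below them. The HepG2 change of -0.67 was not called (adjusted p = 0.319), but it was -0.94 (adjusted p = 0.0264) without the in ovo libraries numbered 3, and it was also called lower with total counts alone (-0.90, adjusted p = 0.0385) or GC and length trends removed (-1.06, adjusted p = 0.00163). PLC/PRF/5 levels were 266 to 428 CPM in tumours and 265 to 395 CPM in cultures, a difference of 0.13 with a 95% interval of -0.85 to 1.10.

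MCL1, a short-lived guardian whose protein is controlled by degradation, also spread widely among tumours. In HuH7 its level was 578, 453, 1187 and 268 CPM in tumours, against 228, 214 and 214 CPM in cultures. All 4 tumours were above the cultures (log2 fold change 1.29 ± 0.40, adjusted p = 0.0112 by limma), and without the tumour numbered 3 the change was 0.91 (adjusted p = 0.0551). With the GC and length trends removed it was 0.46 (adjusted p = 0.0618).

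In Hep3B, MCL1 was at 507, 883, 1040 and 617 CPM in tumours and at 406, 423 and 419 CPM in cultures. The groups did not overlap, as for 26.8% of all tested genes with tumours above in that line, but the change of 0.81 was not called (adjusted p = 0.0874). In HepG2 the tumour numbered 3 had 577 CPM, above the cultures (434 to 501 CPM), and the other tumours had 185 to 268 CPM, below them. The uncalled HepG2 change of -0.72 (adjusted p = 0.193) was -1.002 (adjusted p = 0.00471) without the in ovo libraries numbered 3, -0.955 (adjusted p = 0.00867) with total counts alone and -1.12 (adjusted p = 8.08e-05) with GC and length trends removed. MCL1 in PLC/PRF/5 was at 384 to 1119 CPM in tumours and 341 to 540 CPM in cultures, and the change of 0.64 was not called.

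**Figure D2:**
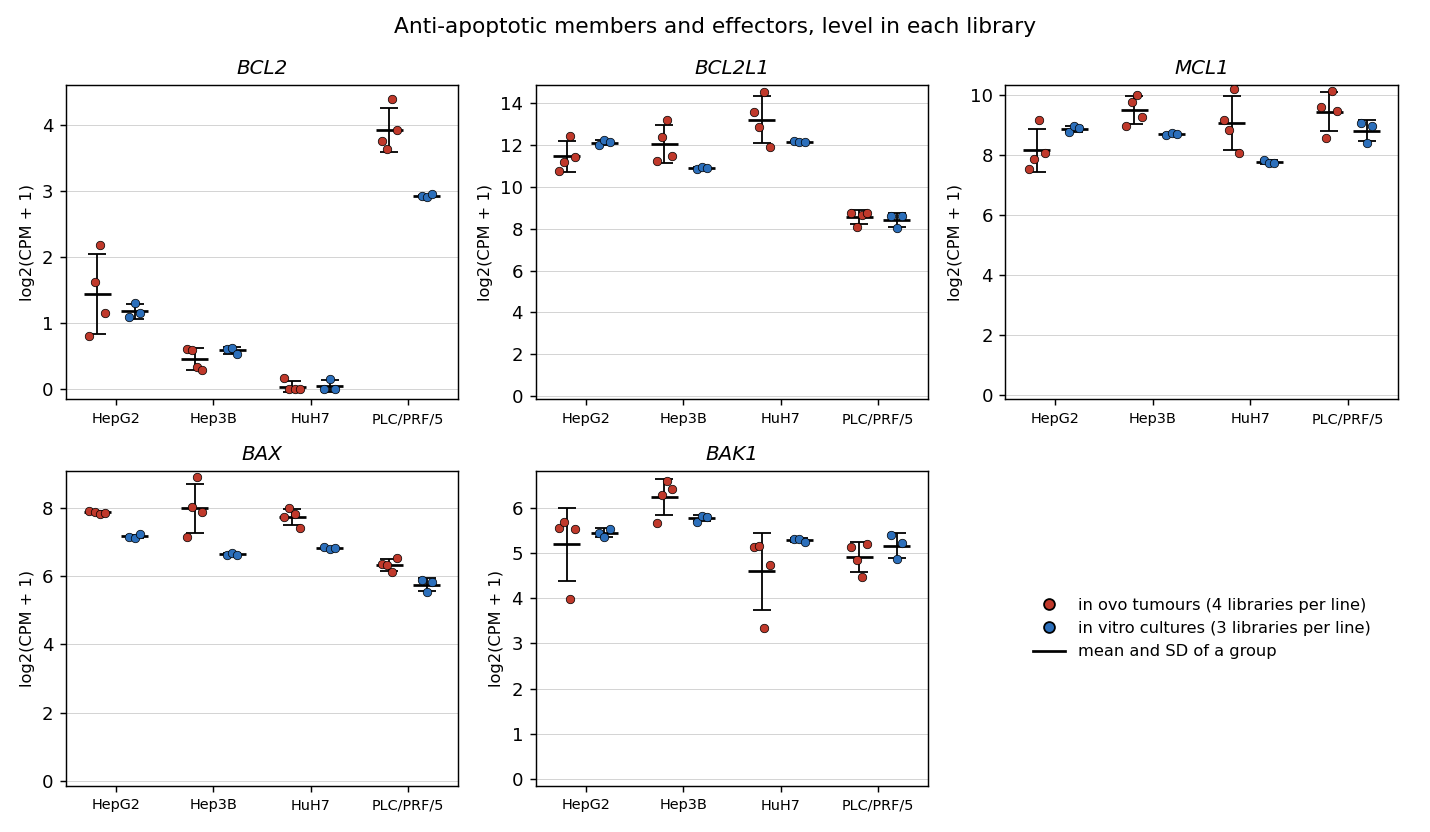
Level of the anti-apoptotic members and the effectors in each library, as log2(CPM + 1), with in ovo tumours (red, 4 per line) left of in vitro cultures (blue, 3 per line) and the mean and SD of each group. BCL2 is high in PLC/PRF/5, BCL2L1 is low there, and BAX in tumours lies above BAX in cultures in all 4 lines.

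BAX, the effector that moves to mitochondria on activation, was higher in the tumours of 3 lines. Its level was 240, 236, 227 and 229 CPM in HepG2 tumours, against 141, 139 and 149 CPM in HepG2 cultures (log2 fold change 0.71 ± 0.23, adjusted p = 0.0277 by limma). In Hep3B it was 141, 259, 479 and 234 CPM in tumours, against 98.3, 101 and 96.8 CPM in cultures (1.35 ± 0.23, adjusted p = 4.97e-05). In HuH7 it was 211, 253, 225 and 171 CPM in tumours, against 114, 110 and 112 CPM in cultures (0.92 ± 0.23, adjusted p = 0.00306). In these 3 lines the lowest tumour lay above the highest culture, as for 18.2%, 26.8% and 25.5% of all tested genes.

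BAX in PLC/PRF/5 stood at 81.1, 78.7, 68.6 and 92.3 CPM in tumours and at 58.3, 45.4 and 56.3 CPM in cultures. Every tumour was again above every culture, as for 23.4% of all tested genes, but the change of 0.58 was not called (adjusted p = 0.0895). It was 0.65 (adjusted p = 0.00522) without the in ovo libraries numbered 3. The line by setting interaction did not pass for BAX (adjusted p = 0.209). The BAX calls were lost with GC and length trends removed, where the changes were 0.37, 0.40 and 0.17 in HepG2, Hep3B and HuH7, with adjusted p of 0.184, 0.119 and 0.53. With total counts alone, HepG2 and Hep3B were at 0.47 and 0.37 and not called. The HepG2 call was also lost without any 1 of its 3 cultures (adjusted p = 0.063 to 0.0836).

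BAK1, the effector that sits in the mitochondrial membrane, was called in no line by the fit used throughout, whereas 25.1%, 52.0%, 43.4% and 17.5% of all tested genes were called in HepG2, Hep3B, HuH7 and PLC/PRF/5. Its level was 46.0, 50.6, 14.8 and 45.3 CPM in HepG2 tumours and 42.6, 39.6 and 45.5 CPM in HepG2 cultures. In HuH7 it was 34.1, 34.9, 9.10 and 25.6 CPM in tumours and 38.7, 38.5 and 36.6 CPM in cultures. All HuH7 tumours lay below all HuH7 cultures, as for 23.0% of all tested genes, and the change of -0.69 was not called (adjusted p = 0.13). With GC and length trends removed it was -1.41 and called lower (adjusted p = 0.0164). The tumour numbered 3 was the lowest in both lines, where it was the highest for BCL2L1 and MCL1. Hep3B tumours held 49.9 to 95.3 CPM and Hep3B cultures 50.8 to 55.2 CPM, and PLC/PRF/5 tumours held 21.0 to 35.5 CPM and PLC/PRF/5 cultures 28.1 to 41.2 CPM. The 95% interval of the BAK1 change in HuH7 was -1.46 to 0.08, which spans a fall of more than 1 log2 unit.

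BCL2L11, which encodes BIM, an activator of the effectors, was called higher in 3 lines. Its level was 166, 194, 172 and 139 CPM in HuH7 tumours, against 37.5, 34.7 and 34.3 CPM in HuH7 cultures (log2 fold change 2.20 ± 0.19, adjusted p = 3.07e-09 by limma). In PLC/PRF/5 it was 45.1, 44.9, 53.0 and 57.9 CPM in tumours, against 16.1, 14.3 and 16.8 CPM in cultures (1.61 ± 0.19, adjusted p = 1.1e-06). In HepG2 it was 52.7, 68.9, 95.4 and 81.9 CPM in tumours, against 38.5, 42.2 and 43.3 CPM in cultures (0.81 ± 0.19, adjusted p = 0.00277). These 3 calls held under all 13 other settings and with each of 28 libraries left out in turn.

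Hep3B differed. There BCL2L11 was at 46.4, 75.3, 82.6 and 49.2 CPM in tumours and at 55.4, 57.5 and 54.3 CPM in cultures, with 2 tumours above and 2 below the cultures. The change was 0.14 with a 95% interval of -0.26 to 0.54. With total counts alone it turned to -0.82 (adjusted p = 4.94e-05), a setting that moves the median of all tested genes in Hep3B to -0.74. The HuH7 response exceeded the Hep3B response by 2.06 ± 0.27 log2 units (adjusted p = 2.68e-06) and the HepG2 response by 1.39 ± 0.27 (adjusted p = 0.000438). The PLC/PRF/5 response exceeded the Hep3B response by 1.47 ± 0.27 (adjusted p = 0.000274). The interaction of line and setting was called (adjusted p = 5.89e-06), as for 41.8% of all tested genes.

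**Figure D3:**
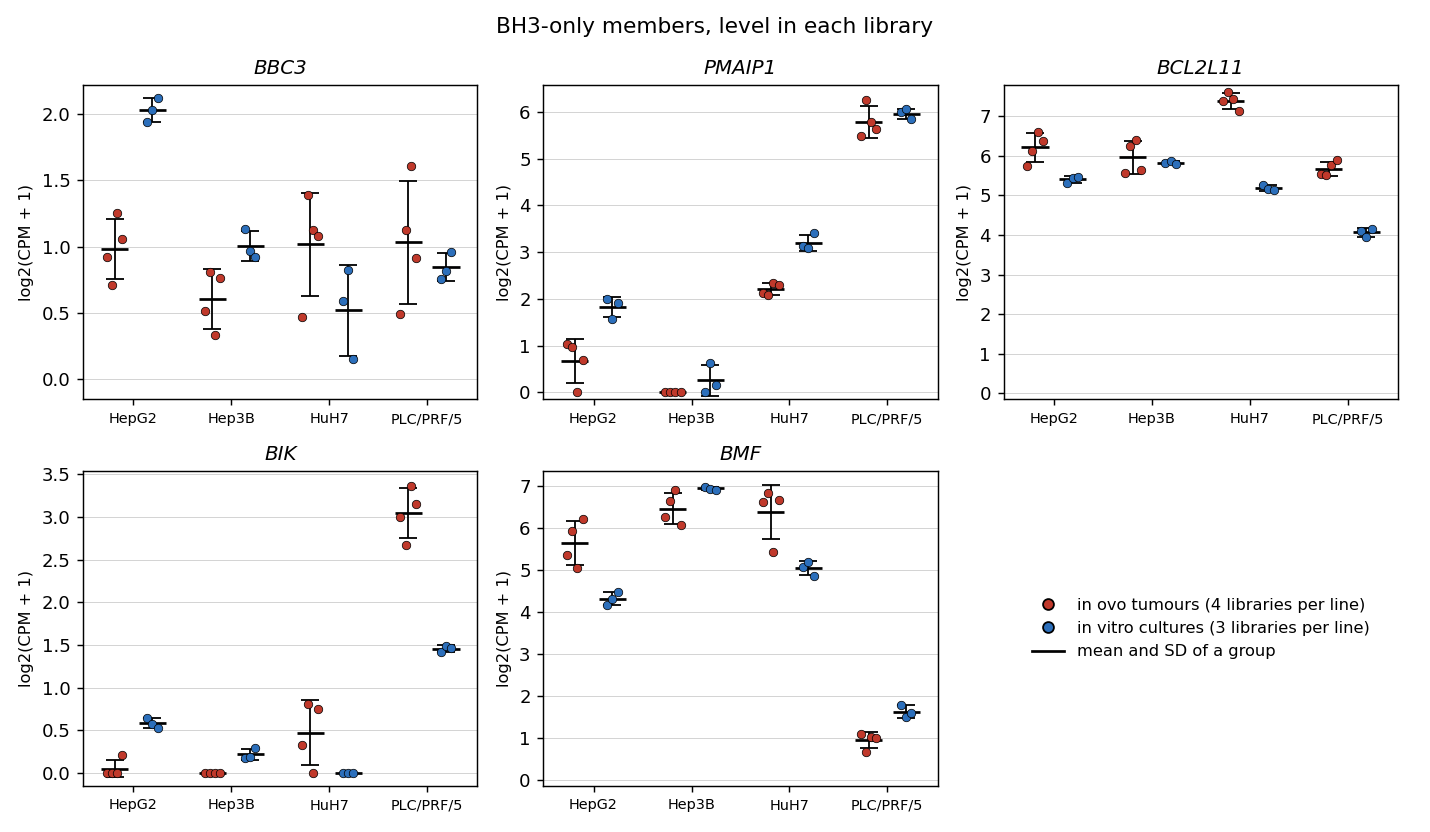
Level of the BH3-only members in each library, as log2(CPM + 1), with in ovo tumours (red, 4 per line) left of in vitro cultures (blue, 3 per line) and the mean and SD of each group. BCL2L11 is separate between the settings in HepG2, HuH7 and PLC/PRF/5, BMF is higher in tumours of HepG2 and HuH7, and BIK and PMAIP1 are high in PLC/PRF/5.

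BMF, known for its link to the actin cytoskeleton and to loss of attachment, rose in 2 lines. Its level was 40.1, 59.3, 31.9 and 73.4 CPM in HepG2 tumours, against 16.9, 18.7 and 21.0 CPM in HepG2 cultures (log2 fold change 1.32 ± 0.28, adjusted p = 0.000854 by limma). In HuH7 it was 97.1, 112, 41.8 and 100.2 CPM in tumours, against 32.3, 35.3 and 28 CPM in cultures (1.35 ± 0.28, adjusted p = 0.000489). All tumours of both lines lay above their cultures, and both calls held under all settings tried.

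In Hep3B BMF was at 75.1, 98.0, 118 and 65.4 CPM in tumours and at 125, 121 and 119 CPM in cultures. In PLC/PRF/5 it was at 1.11, 0.588, 1.02 and 0.989 CPM in tumours and at 2.45, 1.81 and 2.00 CPM in cultures, or 7 to 11 reads against 17 to 25. In both lines every tumour lay below every culture, as for 28.8% of tested genes in Hep3B and 16.1% in PLC/PRF/5, but neither change was called (-0.48, adjusted p = 0.151, and -0.68, adjusted p = 0.094). BMF in Hep3B was called lower with total counts alone (-1.45, adjusted p = 0.00071), with GC and length trends removed (-1.15, adjusted p = 0.00325) and without the in ovo libraries numbered 3 (-0.68, adjusted p = 0.0033). In PLC/PRF/5 6 of 13 settings called it lower, at -0.73 to -1.30, edgeR and DESeq2 among them. The HepG2 response exceeded the Hep3B response by 1.81 ± 0.39 (adjusted p = 0.00129) and the PLC/PRF/5 response by 2.01 ± 0.39 (adjusted p = 0.000621).

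BBC3 and PMAIP1, which encode PUMA and NOXA, were low and fell in HepG2 tumours. BBC3 stood at 0.894, 0.640, 1.38 and 1.08 CPM in HepG2 tumours, against 2.82, 3.08 and 3.34 CPM in HepG2 cultures, or 4 to 7 reads against 20 to 30. The groups did not overlap, and the change was -1.04 ± 0.22 (adjusted p = 0.000985 by limma). The other lines had 1 to 18 BBC3 reads in tumours and 1 to 9 in cultures, and none was called. BBC3 passed the filter through 8 of 28 libraries.

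PMAIP1 had 7, 6, 0 and 4 reads in HepG2 tumours, against 21, 16 and 25 reads in HepG2 cultures (log2 fold change -1.15 ± 0.23, adjusted p = 0.00045 by limma). It also fell in HuH7, to 3.34, 3.23, 4.05 and 3.94 CPM in tumours, against 7.69, 7.46 and 9.56 CPM in cultures (-0.99 ± 0.23, adjusted p = 0.00133). In both lines every tumour was below every culture. In Hep3B PMAIP1 was at 0 reads in all 4 tumours and at 0, 4 and 1 reads in cultures, so no fold is given. PLC/PRF/5 held PMAIP1 at 43.8 to 75.6 CPM in tumours and 56.3 to 65.3 CPM in cultures, a change of -0.17 with a 95% interval of -0.65 to 0.30.

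BIK, which acts at the endoplasmic reticulum, was read above a few reads in PLC/PRF/5 alone. There its level was 6.99, 5.38, 9.29 and 7.91 CPM in tumours, against 1.66, 1.81 and 1.77 CPM in cultures. The tumours held 64 to 82 reads and the cultures 15 to 19, and the change was 1.59 ± 0.16 (adjusted p = 5.15e-08 by limma). HepG2 had 0, 0, 0 and 1 reads in tumours and 4 reads in each culture, which the fit called lower (adjusted p = 0.0144). HuH7 had 2, 7, 0 and 8 reads in tumours and 0 in each culture, which the fit called higher (adjusted p = 0.0191). Both sides of these 2 calls sit at or near the floor of 3 reads, so no fold is given, and both calls were lost with a pseudocount of 5 CPM. The HuH7 call was also lost without any 1 culture or without the tumour numbered 2 or 4, and the HepG2 call without the culture numbered 1 (adjusted p = 0.0511 to 0.0716 and 0.0629). Hep3B had 0 reads in all tumours and 1, 1 and 2 in cultures. BIK passed the filter through the 7 PLC/PRF/5 libraries, and BCL2 through HepG2 and PLC/PRF/5 libraries.

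Of 60 combinations of a member and a pair of lines, 39 differed in ovo and 35 in vitro. Of all tested genes, 50.3% differed in ovo between HepG2 and Hep3B, 52.7% between HepG2 and HuH7, 55.5% between HepG2 and PLC/PRF/5, 48.9% between Hep3B and HuH7, 66.5% between Hep3B and PLC/PRF/5 and 63.7% between HuH7 and PLC/PRF/5. For the cultures the shares of the same pairs were 40.0%, 44.6%, 50.9%, 34.0%, 46.5% and 49.1%. PLC/PRF/5 had the highest BCL2, PMAIP1 and BIK and the lowest BCL2L1, BAX and BMF of the 4 lines in both settings. BIK passed the filter through PLC/PRF/5 libraries alone, and BCL2 through those of HepG2 and PLC/PRF/5. Their high rank in PLC/PRF/5 was thus in part set by the filter, and their pairs are among the 39 and 35. BCL2 was 2.48 ± 0.20 log2 units above the next line in ovo, HepG2 (adjusted p = 8.78e-11), and 1.74 ± 0.24 above it in vitro (adjusted p = 7.12e-07). BMF was 4.70 ± 0.26 units lower in PLC/PRF/5 than in HepG2 in ovo (adjusted p = 2.68e-14) and 2.69 ± 0.30 lower in vitro (adjusted p = 2.57e-08).

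BCL2L11 changed its order with setting. In ovo HuH7 was highest, 1.18 ± 0.18 units above HepG2 (adjusted p = 3.68e-06), and below it neither HepG2 and Hep3B nor Hep3B and PLC/PRF/5 differed by the test (adjusted p = 0.263 and 0.15), while HepG2 was above PLC/PRF/5 (0.54, adjusted p = 0.0125). In vitro neither Hep3B and HepG2 nor HepG2 and HuH7 differed by the test (adjusted p = 0.109 and 0.444), Hep3B was above HuH7 (0.64, adjusted p = 0.0176), and PLC/PRF/5 was 1.12 ± 0.21 below HuH7 (adjusted p = 5.57e-05). PMAIP1 kept the order PLC/PRF/5, HuH7, HepG2, Hep3B in both settings, with each step called. Its last step in ovo rests on few reads: HepG2 tumours held 7, 6, 0 and 4 and Hep3B tumours 0 each, so the groups overlapped. For MCL1 the only step called between neighbours in the order was that between HuH7 and HepG2 in ovo (0.91 ± 0.37, adjusted p = 0.0403). Lines further apart also differed by limma. In ovo HepG2 was below Hep3B (-1.35, adjusted p = 0.00342) and PLC/PRF/5 (-1.29, adjusted p = 0.00414). In vitro HepG2 was above HuH7 (1.11, adjusted p = 0.0356), the reverse of in ovo, and HuH7 was below PLC/PRF/5 (-1.04, adjusted p = 0.0436).

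By the main fit, 7 of the 10 members had a response that differed among lines: BCL2, MCL1, BBC3, PMAIP1, BCL2L11, BIK and BMF. The same interaction test called 41.8% of all tested genes. The BCL2 interaction was lost in 5 of 12 other settings, edgeR, DESeq2 and limma-voom among them. That of PMAIP1 was lost in 6 of 12 and that of BBC3 in 1 of 11. The MCL1 interaction was lost in 4 of 28 fits without 1 library. Those of BCL2L11 and BMF were kept in all 12 other settings, and that of BIK in the 11 that tested it. BIK passed the filter through PLC/PRF/5 libraries alone, where it is high, so its interaction was in part set by the filter. Of 60 differences of response between 2 lines, 23 were called, where the shares of all tested genes over the same pairs were 23.7%, 21.6%, 15.8%, 20.3%, 25.9% and 16.9%. The 23 include differences of BIK and of BCL2, which passed the filter through HepG2 and PLC/PRF/5 libraries. For BCL2L1, BAX and BAK1 the interaction did not pass (adjusted p = 0.0734, 0.209 and 0.282), which does not show that their responses were alike. All 4 responses share 1 estimate of the spread.

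FOXO3, a forkhead factor known as a regulator of BCL2L11 and chosen for a closer look after its values were seen, was higher in the tumours of 3 lines. Its level was 662 ± 290 CPM in Hep3B tumours against 142 ± 7.71 CPM in Hep3B cultures, 616 ± 129 CPM in HuH7 tumours against 159 ± 1.56 CPM in HuH7 cultures, and 170 ± 12.5 CPM in PLC/PRF/5 tumours against 89.8 ± 7.78 CPM in PLC/PRF/5 cultures (SD, n = 4 and 3). The log2 fold changes were 2.11, 1.92 and 0.91, with limma adjusted p of 6.87e-08, 4.29e-07 and 0.00619. In HepG2 it was 331 ± 69.1 CPM in tumours and 272 ± 11.4 CPM in cultures, and not called. BCL2L11 was called higher in HepG2, HuH7 and PLC/PRF/5 and not in Hep3B. Whether the FOXO3 values bear on those of BCL2L11 was not tested.

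**Figure D4:**
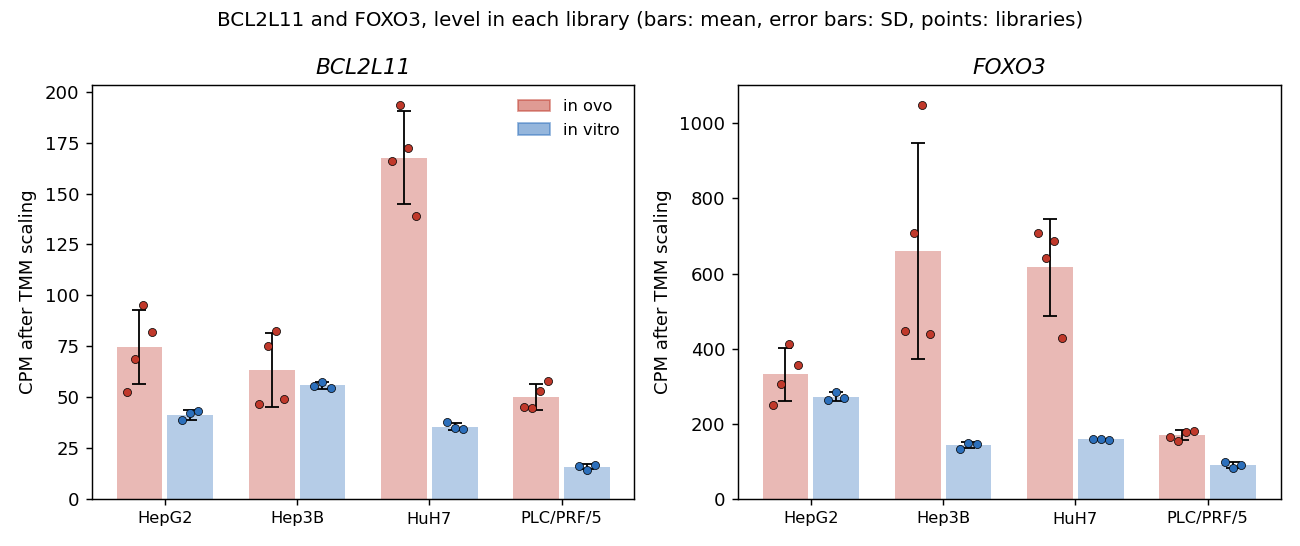
Level of BCL2L11 (left) and FOXO3 (right) in each line, in CPM after TMM scaling, with in ovo (red, 4 libraries) left of in vitro (blue, 3 libraries); bars are means, error bars SD and points libraries. BCL2L11 averages 63.4 CPM in Hep3B tumours and 55.8 CPM in Hep3B cultures, where FOXO3 averages 662 and 142 CPM.

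Promoters are shown for BCL2L11 and BAX, the members that were higher in the most lines. Each is the 250 bases before the gene's start in the RefSeq table for GRCh38.p14, which held 8 of the 10 members. The motifs GTAAACA (forkhead) and CACGTG (E-box) were chosen after the values were seen, searched on both strands, and stand in capitals. BCL2L11 is at chr2:111120664-111120913 and BAX at chr19:48954625-48954874, both on the plus strand.
BCL2L11: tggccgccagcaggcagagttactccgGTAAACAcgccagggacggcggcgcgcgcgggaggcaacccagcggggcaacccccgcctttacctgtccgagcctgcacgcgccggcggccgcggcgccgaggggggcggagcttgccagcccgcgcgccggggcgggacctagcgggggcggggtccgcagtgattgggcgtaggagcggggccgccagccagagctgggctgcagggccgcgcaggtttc
BAX: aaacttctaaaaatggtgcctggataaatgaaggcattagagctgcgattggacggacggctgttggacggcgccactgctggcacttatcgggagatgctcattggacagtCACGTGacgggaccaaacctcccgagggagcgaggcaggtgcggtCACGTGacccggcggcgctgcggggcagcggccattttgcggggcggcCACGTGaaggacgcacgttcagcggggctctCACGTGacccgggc

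The BCL2L11 window held 1 GTAAACA, as did at least 1 match in 2.98% of the 35116 promoter entries. The BAX window held 4 CACGTG, where 6.34% of entries held at least 1 and 0.0142% at least 4. Of the members' other entries, that of BBC3, a member called lower in HepG2, held 1 CACGTG, and the rest held neither motif. These are matches of letters, and nothing about binding was measured.

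Among 17 regulators of the family or of MCL1 turnover, HepG2 tumours had 3 higher and 4 lower, Hep3B tumours 6 higher and 5 lower, HuH7 tumours 4 higher and 5 lower, and PLC/PRF/5 tumours 4 higher and 1 lower. The shares of all tested genes called in these lines were 25.1%, 52.0%, 43.4% and 17.5%. With total counts alone the Hep3B split was 3 higher and 10 lower. TRIB3 and ATF4, of the amino acid stress response that can induce PMAIP1 and BBC3, fell in HepG2, Hep3B and HuH7. TRIB3 was at 38.7 ± 12.5 CPM in HepG2 tumours against 239 ± 5.62 CPM in HepG2 cultures (log2 fold change -2.67, adjusted p = 1.39e-07 by limma), and ATF4 at 355 ± 97.9 CPM in HepG2 tumours against 907 ± 70.5 CPM in HepG2 cultures (-1.39, adjusted p = 7.02e-06). DDIT3, a stress factor linked to BCL2L11, rose in Hep3B (2.14) and HuH7 (2.09), where TRIB3 and ATF4 fell. By the main fit BBC3 was called lower in HepG2 alone, and PMAIP1 in HepG2 and HuH7. Whether the values of TRIB3, ATF4 and DDIT3 bear on those of the members was not tested. HUWE1, a ligase for MCL1 that was named after its values were seen, was higher in all 4 lines by 0.62 to 0.76, but not called in any of them with total counts alone, where its Hep3B change was -0.21.

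Of 10 tested relatives of the family outside the members, HepG2 tumours had 2 higher, Hep3B tumours 4, and HuH7 and PLC/PRF/5 tumours 3 each, and limma called none lower. None was lower at an unadjusted p under 0.05, or by edgeR or DESeq2, but with total counts alone 2 were higher and 3 lower in Hep3B. Of all tested genes, 12.1%, 24.6%, 23.6% and 11.9% were called higher in HepG2, Hep3B, HuH7 and PLC/PRF/5. The shares called lower were 13.0%, 27.4%, 19.8% and 5.61%. BOK, a BAX-like effector, rose in all 4 lines. It was at 706 ± 346 CPM in HepG2 tumours against 298 ± 33.2 CPM in HepG2 cultures, 303 ± 41.2 CPM in Hep3B tumours against 74.0 ± 2.17 CPM in Hep3B cultures, 297 ± 129 CPM in HuH7 tumours against 39.8 ± 0.532 CPM in HuH7 cultures, and 29.4 ± 7.12 CPM in PLC/PRF/5 tumours against 12.7 ± 0.983 CPM in PLC/PRF/5 cultures. Its log2 fold changes were 1.12, 2.01, 2.77 and 1.12, and it stayed called with each other scaling tried and with GC and length trends removed. BNIP3 and BNIP3L, hypoxia-responsive mitophagy genes, were called higher in PLC/PRF/5 (1.92 and 1.75) and in no other line.

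Of 13 tested genes of the apoptosome and the executioner step, 2 rose and 6 fell in Hep3B, 3 rose and 5 fell in HuH7, 1 rose in PLC/PRF/5, and none was called in HepG2. For HepG2, 1 was higher and 2 were lower at an unadjusted p, edgeR called none and DESeq2 called 1 higher. With total counts alone the Hep3B split was 1 higher and 11 lower. In HepG2, Hep3B, HuH7 and PLC/PRF/5, 25.1%, 52.0%, 43.4% and 17.5% of all tested genes were called. The shares called lower there were 13.0%, 27.4%, 19.8% and 5.61%. AIFM1, a mitochondrial flavoprotein, and VDAC2, an outer membrane channel known to bind BAK1, fell in Hep3B and HuH7. AIFM1 was at 4.63 ± 3.29 CPM in Hep3B tumours against 16.9 ± 1.27 CPM in Hep3B cultures, and VDAC2 at 18.9 ± 16.2 CPM in Hep3B tumours against 70.4 ± 2.62 CPM in Hep3B cultures (log2 fold changes -1.88 and -2.21, adjusted p = 0.00203 and 5.24e-05 by limma). CASP9, the initiator caspase, was called higher in HuH7 and PLC/PRF/5, at 288 ± 50.5 CPM in PLC/PRF/5 tumours against 103 ± 7.65 CPM in PLC/PRF/5 cultures.

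Of 7 inhibitors of apoptosis, 3 rose and 2 fell in HepG2, 2 rose and 3 fell in Hep3B, 3 rose in HuH7 and 1 rose in PLC/PRF/5. With total counts alone the Hep3B split was 1 higher and 5 lower. NAIP rose in all 4 lines, by 1.29, 1.51, 1.64 and 0.93, though not in Hep3B or PLC/PRF/5 with total counts alone. BIRC3 was called higher in HepG2 (1.47) and HuH7 (1.10) and lower in Hep3B (-1.49). Of 12 tested death receptor genes, 2 rose and 3 fell in HepG2, 3 rose and 2 fell in both Hep3B and HuH7, and 1 rose in PLC/PRF/5. With total counts alone the Hep3B split was 3 higher and 5 lower. Of all tested genes, 25.1%, 52.0%, 43.4% and 17.5% were called in HepG2, Hep3B, HuH7 and PLC/PRF/5. TNFSF10, the TRAIL ligand, rose in HepG2, Hep3B and HuH7 (2.23, 4.17 and 1.17), and CFLAR, which blocks caspase-8, rose in Hep3B, HuH7 and PLC/PRF/5 (2.52, 2.03 and 1.65).

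Likeness of pattern is given as Pearson's r of log2(CPM + 1) over the 28 libraries, which share 4 lines and 2 settings, so that line differences weigh heavily in it. Nearest to BCL2L11 were MAP3K15 (0.915), LLGL1 (0.905) and AKAP7 (0.883), and nearest to BMF were GPX7 (0.965), SLC29A4 (0.958) and CHFR (0.954). BCL2 was nearest to DCAF1 (0.982), SIM2 and AVPI1, BCL2L1 to NPAS2 (0.963), ZNF182 and MBP, and MCL1 to RAB35 (0.896), TNKS1BP1 and RGS19. BAX was nearest to HDAC5 (0.946), STK25 and ACAA1, and BAK1 to VPS26B (0.931), PPIB and TTC38. BBC3 was nearest to PAEP (0.792), CYP24A1 and CPLX2, PMAIP1 to CDYL2 (0.963), EMP1 and TNFSF9, and BIK to EDN2 (0.972), WNT10B and STC1. Among the members, r was 0.787 between BCL2L1 and BAX, 0.729 between BCL2L11 and BAX, and -0.907 between PMAIP1 and BMF.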

How the data were processed

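Expression was read with a targeted amplicon assay in 28 libraries of 4 lines, from 500 ng of total RNA each, per the labels' protocols. The deposited table holds, for each amplicon, a signal that the authors had scaled to a library total of 500000. Which aligner and counter were used is not given in the sources used here; hg38 is the build listed in the submitters' processing notes. Whole reads were recovered from the step between low values: 99.9684% or more of a library's values came within 0.01 of a whole number, and the largest departure was 0.114. 1 cell that held no number, KRT18 in 1 in ovo library, was filled from the shortfall of its total.

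TMM factors over all amplicons (edgeR 4.0.16) gave CPM. filterByExpr by group, at a count of 10, kept 13100 of 18961 genes, and 5861 did not pass. limma 3.58.1 (R 4.3.3) with a trended variance on log2(CPM + 1), fitted jointly to 8 groups (20 residual degrees of freedom), gave all contrasts and the interaction, with Benjamini-Hochberg adjustment over all tested genes. A fold change on this scale understates the change of low genes. The labels leave unsaid if the replicates are different cultures or embryos, so p-values cover only the spread among these samples, which may be technical. edgeR, DESeq2 1.42.0 and limma-voom on the recovered reads were alternatives.

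All 10 members are named. From each other list, called genes are counted, and at most 4 per line with the largest absolute fold change are named; for each member the 3 genes of highest r are given. Values of some listed genes are not reported here. The members and lists were chosen with earlier results of these data known. Intervals and floors cover counting or replicate error only, since reads carry no molecular identifiers.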

Additional observations from a re-analysis of the deposited data

Results flagged for a closer look

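In 4 of 40 groups of 4 tumours, the highest or lowest library stood apart from the other 3 by Dixon's 95% criterion. Its nominal rate, about 1 group in 20, is for continuous values. The count of 4 cannot be set against that rate, because groups near 0 reads are among the 40. PMAIP1 and BIK were at 0 in all Hep3B tumours and could not meet the criterion. BAK1 was at 14.8 CPM in HepG2 in ovo replicate 3, against 45.3 to 50.6 CPM in the other tumours. BCL2L1 was at 266 CPM in PLC/PRF/5 in ovo replicate 2, against 408 to 428 CPM in the others. BCL2 in HuH7 in ovo replicate 1 (0.129 CPM) and BIK in HepG2 in ovo replicate 4 (0.154 CPM) each stood apart by 1 read against 0, which always meets the criterion.

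The difference between tumours and cultures itself differed among lines for 7 members, by limma's test of the interaction, which 41.8% of all tested genes passed. The adjusted p was 0.0191 for BCL2, 0.0268 for MCL1, 0.00143 for BBC3, 0.0259 for PMAIP1, 5.89e-06 for BCL2L11, 1.38e-07 for BIK and 5.84e-05 for BMF. The BCL2 and PMAIP1 calls were lost in 5 and 6 of 12 other settings, and the MCL1 call in 4 of 28 fits without 1 library. BIK held at most 8 reads in any library outside PLC/PRF/5 and passed the filter through that line alone, so its interaction was in part set by the filter.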

How the results depend on the processing

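Of 2022 member values under 13 other settings and 28 fits without 1 library, 1923 kept their side of the threshold, 50 lost and 48 gained a call, and 1 reversed: BCL2L11 in Hep3B was -0.82 with total counts alone. 24 uncalled values changed sign. Members lower in HepG2 numbered 5 with total counts alone, 1 with at least 10 CPM in 3 libraries and 5 without the in ovo libraries numbered 3. Members higher in Hep3B numbered 0 with total counts alone or with GC and length trends removed, and 1 with no filter or without the libraries numbered 3. Members lower in Hep3B numbered 3, 2, 2 and 1 with total counts, edgeR, trends removed and the libraries numbered 3 left out. In HuH7, 3 were higher with trends removed or the line fitted alone, and 2 were lower with trends removed. In PLC/PRF/5, 1 member was lower, BMF, with a pseudocount of 0.25, edgeR, DESeq2, trends removed, the libraries numbered 3 left out or the line fitted alone. Genes called in PLC/PRF/5 numbered 3822 without the libraries numbered 3 and 3723 with the line alone, and those in HuH7 3733 with the line alone. Called differences of response numbered 15 with the stricter filter or edgeR. BBC3 and BIK did not reach 10 CPM in 3 libraries, so the stricter filter left them out and their calls were not retested there. The causes of the other changes were not tested. Leaving out 1 library gave 2328 to 3947 genes called in HepG2, 5659 to 7380 in Hep3B, 4351 to 6689 in HuH7 and 1431 (without PLC/PRF/5 in vitro replicate 2) to 2841 in PLC/PRF/5. Members higher then numbered 2 to 3, 1 to 3, 4 to 6 and 3 to 4 in these lines, and members lower 2 to 3, 0, 1 and 0 to 1. Genes with an interaction numbered 4911 to 6496, members with one 5 to 9, called differences of response 17 to 26, and line pairs 36 to 40 in ovo and 31 to 40 in vitro. Fold changes rose with amplicon GC content and fell with length over all tested genes (Spearman's rho 0.274 to 0.505 and -0.485 to -0.213). Same-numbered tumours and cultures had deviations that correlated at -0.095 to 0.457. In HepG2, Hep3B, HuH7 and PLC/PRF/5, 2, 0, 0 and 2 of 3 cultures correlated best with their own number. With 3 cultures per line, these values cannot tell whether the numbers pair the samples. With the replicate block BAX in HepG2 (0.71, adjusted p = 0.0647) and BIK in HuH7 (0.38, adjusted p = 0.0927) lost their calls, MCL1 in Hep3B (0.90, adjusted p = 0.0399) and BCL2L1 in HuH7 (1.495, adjusted p = 0.00854) gained one, and 6 members had an interaction. The block was not run for pairs of lines. Depth limits BBC3 in all lines, BIK and BCL2 outside PLC/PRF/5, and PMAIP1 in HepG2 and Hep3B.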
